A study of Mus musculus with 18 samples.

Results

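The 10 genes described here, Trp53 and 9 genes that p53 is known to activate (Mdm2, Cdkn1a, Ccng1, Btg2, Bbc3, Phlda3, Trp53inp1, Sesn2 and Zmat3), were followed through all 6 conditions of an experiment with inhibitors of P300 and CBP. They were chosen by symbol, through the Ensembl identifiers of the count table, and all 10 of 43629 identifiers were found and passed the filter on low counts, which left 11964 genes for testing. RNA was measured by QuantSeq, a sequencing method that reads the 3′ ends of messenger RNAs, in AT3 cells, a mouse mammary carcinoma line used as a model of triple-negative breast cancer. Cells were first kept for 1 h in DMSO, the vehicle, or in one of the inhibitors, at 250 nM for A-241 and 1000 nM for A-485. Recombinant murine IFNγ (1 ng/mL) or no cytokine followed for 2 h, which made 3 h in all. The groups without cytokine were DMSO, A-241 and A-485, those with it were IFNγ, A-241+IFNγ and A-485+IFNγ, and each held 3 libraries of 1 line. A-241 and A-485 both inhibit the catalytic activity of P300/CBP, and their doses differed. The labels name biological triplicates and the series text technical ones, so the p-values below measure the spread between libraries, which may be technical.

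p53, the product of Trp53, is a transcription factor that is held at low levels by the ubiquitin ligase Mdm2 and accumulates after DNA damage and other stress. It then binds response elements near genes that arrest the cell cycle, start apoptosis, limit oxidative and metabolic stress, or shut p53 itself off again, as Mdm2 does in a negative feedback loop. P300 and CBP are acetyltransferases that p53 recruits as coactivators, and they acetylate both p53 and the histones around its targets. The p53 protein, its acetylation and its binding were not measured here, and the Trp53 genotype of the line was not given in the sources used here.

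A p53 response element is built of 2 half-sites of 10 bases. The half-site consensus was searched, without a mismatch, in the RefSeq promoter windows of GRCm38.p6, from 250 bases before to 50 bases after each annotated transcript start; the consensus is its own reverse complement, so 1 pass covers both strands. Of the 10 genes, 8 had a window, and 4 of the 8 held at least 1 half-site (Trp53, Mdm2, Cdkn1a and Ccng1), against 9.55% of all 27025 genes with windows and 8.36% of all 32851 windows. Cdkn1a, whose promoter is the textbook p53 target, held 2 half-sites with a spacer of 12 bases at its first annotated start. A pair with 0 mismatches was found in 24 of the 32851 windows (0.0731%) when spacers of up to 13 bases were allowed. In each window the search kept only the pair with the fewest mismatches. The 10 bases directly after the second Cdkn1a half-site, left in lower case, match the consensus with 1 mismatch, so they form another pair with it. The window at the other Cdkn1a start held 0 exact half-sites. Ccng1 held 1 exact half-site directly beside a second one with 1 mismatch, and 1.09% of windows held a pair with at most 1 mismatch. The matches are shown with up to 30 flanking bases, 5′ to 3′ on the strand of the gene, with the exact half-sites and the pairs kept by the search in capitals. Phlda3 is added because it was the gene whose level changed most; the 200 bases before its start held no exact half-site, which says only that these letters are not in this window.
Cdkn1a, chr17:29090876-29090967, + strand: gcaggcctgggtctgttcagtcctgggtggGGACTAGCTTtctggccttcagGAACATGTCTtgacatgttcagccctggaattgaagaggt
Ccng1, chr11:40755432-40755511, - strand: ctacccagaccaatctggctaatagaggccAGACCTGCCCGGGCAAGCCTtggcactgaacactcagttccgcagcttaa
Mdm2, chr10:117710905-117710974, - strand: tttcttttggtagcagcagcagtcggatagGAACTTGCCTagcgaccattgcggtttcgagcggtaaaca
Trp53, chr11:69580254-69580323, + strand: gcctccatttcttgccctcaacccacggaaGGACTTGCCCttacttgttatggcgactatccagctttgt
Phlda3, chr1:135765885-135766084, + strand: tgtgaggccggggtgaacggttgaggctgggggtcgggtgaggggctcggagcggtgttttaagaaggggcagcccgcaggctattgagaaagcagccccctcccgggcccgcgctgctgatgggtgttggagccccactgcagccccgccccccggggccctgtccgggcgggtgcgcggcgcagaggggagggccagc
The map of these matches shows where each lies relative to the transcript start. A match is a description of sequence, and no binding of p53 was measured.

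**Figure D1:**
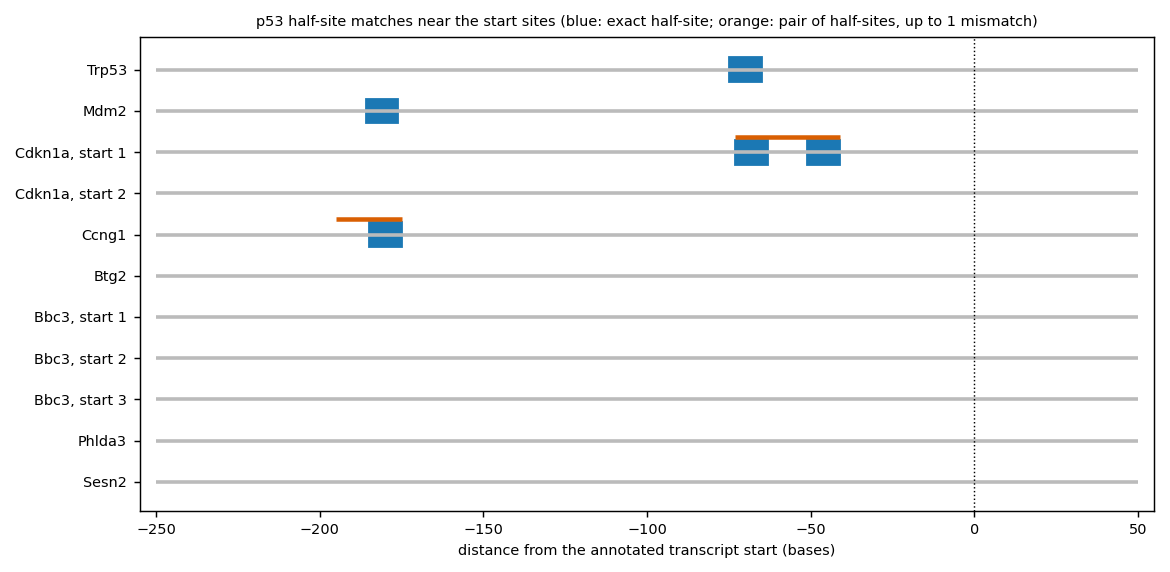
Matches to the p53 half-site consensus in the RefSeq promoter windows of 8 genes (11 windows, 1 per row), by distance from the annotated transcript start in bases. Blue boxes are exact half-sites. Orange bars are the pair of half-sites with the fewest mismatches in a window, where it had at most 1. Cdkn1a has 2 half-sites at its first start, Ccng1, Mdm2 and Trp53 have 1 each, and the other rows have none.

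Total counts per library ran from 3417167 to 7856830, with a median of 4880947.5, and the fewest counts of any of the 10 genes in a library was 6, for Trp53inp1. Levels below are CPM, the counts scaled to a common library size after TMM normalization, and fold changes are log2 values with a standard error (SE) or 95% interval and a p-value adjusted over all 11964 genes; called means that this p was under 0.01. In bulk RNA, fewer cells with a transcript and less of it per cell cannot be told apart. Of the 9 mammary epithelial markers, Epcam, Cdh1, Krt14, Krt18, Krt8, Krt5 and Erbb2 were well above the detection floor in every library. Erbb2 ran from 10.6 to 22.8 CPM. Pgr was low, at 0.298 to 2.94 CPM, and Esr1 had at most 1 count. Leukocyte markers summed to 1.83 to 20.2 CPM and endothelial markers to 0.573 to 4.12 CPM. The epithelial markers summed to 1541 to 1797 CPM in DMSO, 1001 to 1041 in A-241 and 1079.5 to 1214 in A-485, and to 1337 to 1517 CPM in IFNγ, 978 to 1126 in A-241+IFNγ and 1048 to 1193 in A-485+IFNγ. Every inhibitor group thus lay below its control. Krt14 carried most of this difference, at 713 ± 275 CPM in DMSO and 253 ± 29.2 in A-241, whereas Epcam was at 69.1 ± 15.2 and 69.9 ± 6.08. Pgr went the other way, at 1.196 ± 0.746 CPM in DMSO and 2.69 ± 0.222 in A-241, without a call. Of the 8 epithelial markers tested, 6 had a negative and 2 a positive log2 fold change with A-241 against DMSO. The mesenchymal markers summed to 701 to 773 CPM in DMSO, 475 to 513 in A-241 and 579.7 to 616 in A-485, and to 721 to 811 CPM in IFNγ, 508 to 576 in A-241+IFNγ and 641 to 742 in A-485+IFNγ, where only the last overlapped its control. Fn1 carried most of the mesenchymal difference, at 529 ± 61.4 CPM in DMSO and 336 ± 19.5 in A-241, whereas Acta2 was at 62.3 ± 6.81 and 66.1 ± 5.76. EdgeR called Krt14, Krt18 and Fn1 lower in A-241 against DMSO, beside 3.49% of all genes called lower. These marker differences moved with the inhibitor results below, and their part in them was not tested. DMSO replicate 3 and IFNγ replicate 2 stood apart from the other 16 libraries. Gm42418, a gene that overlaps ribosomal RNA sequence, took 20.1% and 23.05% of their counts, against 7.11% to 16.2% elsewhere, and their deviation from the group mean (root mean square over genes, log2) was 0.731 and 0.755, against 0.226 to 0.512.

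These 2 libraries were at the extremes for most of the 10 genes. Of all 18 libraries they had the 2 highest values of Phlda3, Trp53inp1 and Zmat3 and the 2 lowest of Mdm2 and Bbc3, and IFNγ replicate 2 also had the lowest Cdkn1a and Ccng1 and the highest Btg2. Both are in control groups, so every comparison of an inhibitor with its control rests on 1 of them. Fold changes are therefore given with all libraries and again without both. The 2 were set apart in part by their deviation from the group mean, so leaving them out lowers the fitted spread by construction. DMSO and IFNγ then hold 2 libraries each. Narrower intervals and added calls without both are therefore not independent support. Without both, more genes were called overall: 8.36% rather than 4.31% with A-241 against DMSO, 2.64% with A-485 against DMSO, 8.12% with A-241+IFNγ and 2.88% with A-485+IFNγ against IFNγ, and 2% in A-241 against A-485.

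With edgeR and all libraries, 1 of the 10 genes was called in any comparison: Phlda3, which was lower with A-241, both without and with IFNγ. In A-241 against DMSO, 3.49% of the genes tested were called lower and 0.819% higher, and a single gene of 10 says little about the list beside shares of that size. In A-241+IFNγ against IFNγ, 3.51% were called lower and 0.518% higher. None of the 10 was called in A-485 against DMSO, where 0.66% of genes were called in either direction, or in A-485+IFNγ against IFNγ, where 0.535% were. At an unadjusted p under 0.05, edgeR gave 2 higher and 3 lower of the 10 with A-241, 1 higher and 2 lower with A-485, 2 higher and 3 lower with A-241+IFNγ, and 3 higher and 2 lower with A-485+IFNγ. The shares of all genes at that p, in the same order, were 10.2% higher and 13.1% lower, 4.09% and 8.16%, 8.17% and 11.9%, and 5.35% and 9.29%. DESeq2 called 0 of the 10 with A-485 and 1 (Phlda3) with A-485+IFNγ, and limma-voom called 0 in both. The shares of all genes are those of edgeR, and none is given for DESeq2 or limma-voom. The 10 genes therefore did not move one way. Their median log2 fold change was -0.29 for A-241 and 0.10 for A-485. Under IFNγ the medians were -0.27 and 0.02 in that order, while the medians over all genes tested lay between -0.03 and 0.01. The medians without the 2 libraries were -0.37 for A-241 and -0.03 for A-485, and -0.13 and 0.07 under IFNγ, so the sign for A-485 against DMSO turned.

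**Figure D2:**
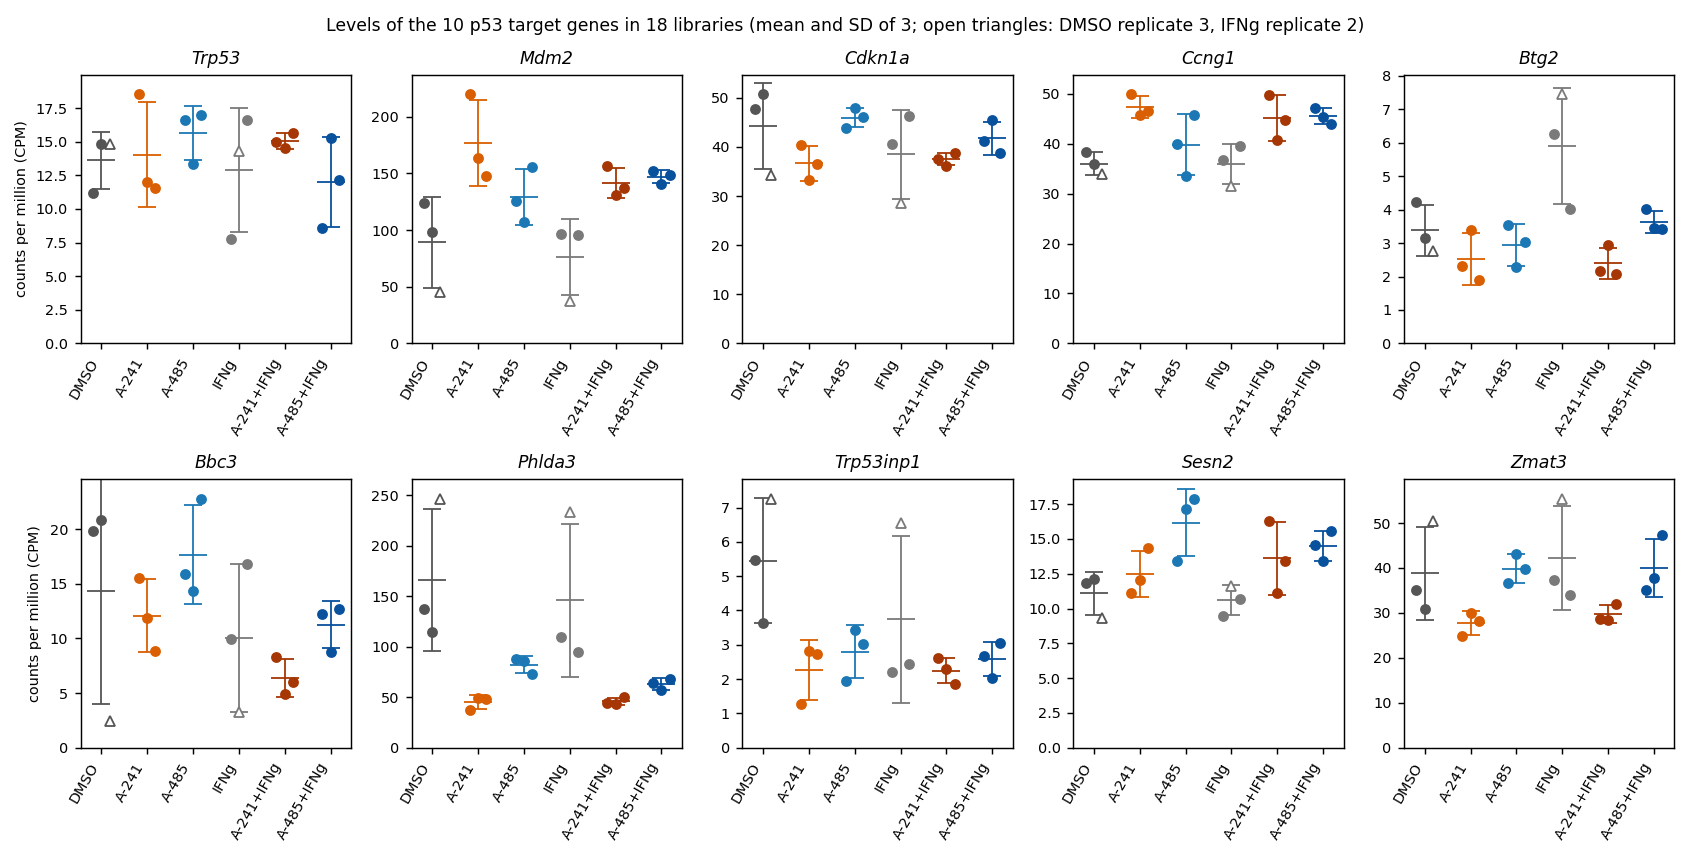
CPM (y axis, from 0) of each of the 10 genes in the 18 libraries, by condition (x axis); points are libraries, bars the mean and SD of 3, and open triangles DMSO replicate 3 and IFNγ replicate 2. Phlda3 lies at 37.7 to 49.7 CPM in all 6 libraries with A-241 and at 94.95 CPM or above in the 6 libraries without inhibitor.

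Counts of groups that did not overlap, with all libraries, gave a wider view than the calls. The libraries of A-241 and DMSO did not overlap for 5 of the 10 genes, with Mdm2 and Ccng1 higher and Phlda3, Trp53inp1 and Zmat3 lower with A-241; over all genes the share was 26.7%. A-485 and DMSO did not overlap for 3 of the 10 (Sesn2 higher, Phlda3 and Trp53inp1 lower), beside 15.9% of all genes. Under IFNγ the groups did not overlap for 5 of the 10 with A-241 (Mdm2 and Ccng1 higher, Phlda3, Btg2 and Zmat3 lower), beside 23.8% of all genes, and for 5 of the 10 with A-485 (Mdm2, Ccng1 and Sesn2 higher, Phlda3 and Btg2 lower), beside 20.6%. With 10 genes, no test of these shares was made.

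**Figure D3:**
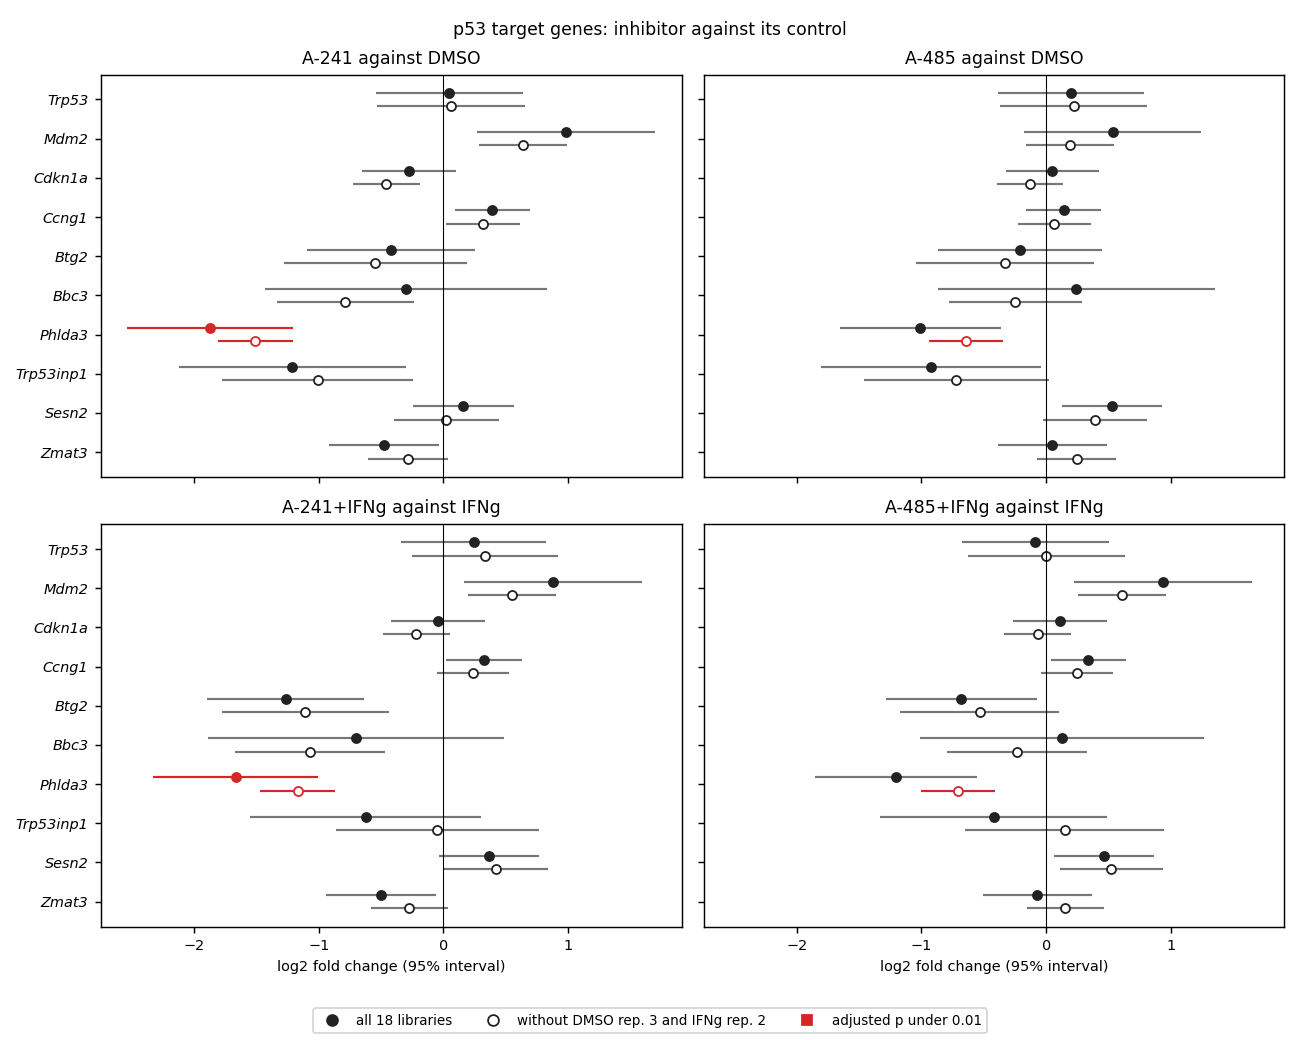
Log2 fold change (x axis, with 95% interval) of the 10 genes with each inhibitor against its own control, with all 18 libraries (filled) and without DMSO replicate 3 and IFNγ replicate 2 (open); red marks an adjusted p under 0.01. Phlda3 is red in both A-241 panels with all libraries (-1.87 and -1.67) and in all 4 panels without the 2 libraries.

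Trp53 itself, at chr11:69580359-69591873 on GRCm38 (ENSMUSG00000059552), showed no call in any comparison. Its level was 11.2, 14.8 and 14.9 CPM in DMSO, 18.5, 12.02 and 11.6 in A-241, and 16.6, 13.4 and 16.96 in A-485. In the groups with IFNγ it was 7.74, 14.3 and 16.6 CPM without inhibitor, 15.0, 14.5 and 15.7 with A-241, and 8.61, 15.3 and 12.2 in A-485+IFNγ. The 6 groups overlapped, and no order of their means exceeded the spread within them. The log2 fold change was 0.05 ± 0.28 (SE) with A-241 against DMSO (95% interval -0.54 to 0.63, adjusted p = 0.942) and 0.24 ± 0.28 with A-241+IFNγ against IFNγ (-0.34 to 0.83, adjusted p = 0.681), so a change of up to about the size of these bounds could not be seen. These were 0.06 (adjusted p = 0.915) and 0.33 (adjusted p = 0.492) without the 2 libraries.

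Mdm2, the ubiquitin ligase that degrades p53 and is itself a p53 target (chr10:117688875-117710758, ENSMUSG00000020184), was higher in every inhibitor group mean than in the controls, without a call. Its level was 124, 98.7 and 45.3 CPM in DMSO, 220, 163 and 148 in A-241, and 126, 107 and 156 in A-485. All 3 A-241 libraries were above all 3 DMSO libraries, whereas A-485 and DMSO overlapped. Under IFNγ, Mdm2 was at 96.1, 37.5 and 95.5 CPM without inhibitor, 156, 131 and 137 with A-241 and 152, 141 and 148 in A-485+IFNγ. Here both inhibitor groups were above the whole IFNγ group. The log2 fold change with A-241 was 0.98 ± 0.34 (adjusted p = 0.0855) without IFNγ and 0.88 (0.16 to 1.60, adjusted p = 0.141) with it. With A-485 it was 0.53 (-0.18 to 1.25, adjusted p = 0.559) and 0.94 (0.22 to 1.65, adjusted p = 0.203). The lowest library of each control group was one of the 2 that stood apart, and without both the values were 0.64 (adjusted p = 0.0134) and 0.55 (adjusted p = 0.0327) with A-241, and 0.19 (adjusted p = 0.649) and 0.61 (adjusted p = 0.0324) with A-485, none of them called.

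The 3 genes of cell cycle arrest did not move together. Cdkn1a encodes p21, the inhibitor of cyclin-dependent kinases through which p53 arrests cells (chr17:29090976-29100727, ENSMUSG00000023067). Its level was 47.6, 50.7 and 34.2 CPM in DMSO, 40.4, 33.2 and 36.5 in A-241, and 44.0, 47.9 and 46.0 in A-485. DMSO replicate 3 lay within the A-241 range and the other DMSO libraries above it. The fitted log2 change was -0.27 with A-241 (-0.65 to 0.10, adjusted p = 0.380) and 0.05 with A-485 (-0.32 to 0.43, adjusted p = 0.920), and -0.46 (-0.73 to -0.19, adjusted p = 0.0184) and -0.13 (adjusted p = 0.691) without the 2 libraries. Under IFNγ Cdkn1a was at 40.7, 28.6 and 46.3 CPM without inhibitor, 37.6, 36.2 and 38.8 with A-241, and 41.1, 45.4 and 38.8 in A-485+IFNγ, and the groups overlapped. The fold change with A-241 there was -0.04 (-0.42 to 0.33, adjusted p = 0.923), and its sign changed with the scaling, to 0.08 with total counts. It was -0.22 (-0.49 to 0.05, adjusted p = 0.297) without the 2 libraries.

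Ccng1 encodes cyclin G1, which recruits a phosphatase to Mdm2 (chr11:40748552-40755311, ENSMUSG00000020326). By the ratio of its highest to its lowest library (1.58) it was the least variable of the 10, between 31.6 and 49.9 CPM in all 18 libraries. Its level was 36.0 ± 2.26 CPM (SD, n = 3) in DMSO and 47.4 ± 2.20 in A-241, with all A-241 libraries above all DMSO libraries. The log2 fold change was 0.39 (0.09 to 0.70, adjusted p = 0.103) with A-241, 0.32 (adjusted p = 0.204) with A-241+IFNγ against IFNγ and 0.34 (adjusted p = 0.285) with A-485+IFNγ against IFNγ, and none was called. Without the 2 libraries these were 0.32 (adjusted p = 0.143), 0.24 (adjusted p = 0.296) and 0.25 (adjusted p = 0.275).

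Btg2, an antiproliferative partner of the deadenylase complex (chr1:134075170-134079120, ENSMUSG00000020423), was a low gene, with 8 to 51 counts per library. Its level was 4.22, 3.16 and 2.76 CPM in DMSO and 6.27, 7.45 and 4.02 in IFNγ, where DMSO replicate 1 overlapped IFNγ replicate 3. In A-241+IFNγ it was 2.18, 2.94 and 2.06 CPM, below all IFNγ libraries, and in A-485+IFNγ it was 4.02, 3.46 and 3.42, also below them, although the nearest pair was equal to 3 digits. On the log2 scale the change was -1.27 ± 0.30 with A-241+IFNγ against IFNγ (-1.90 to -0.63, adjusted p = 0.0135), just short of a call, and -0.68 ± 0.29 with A-485+IFNγ against IFNγ (adjusted p = 0.283). In cells without IFNγ the A-241 value was -0.42 (-1.09 to 0.25, adjusted p = 0.457). With DESeq2 the A-241+IFNγ value passed the threshold (-1.28, adjusted p = 0.00942), as it did without IFNγ replicate 3 (-1.48, adjusted p = 0.00726), and without the 2 libraries it was -1.11 (adjusted p = 0.0228). Without them A-485+IFNγ had -0.53 (adjusted p = 0.286) and A-241 against DMSO -0.55 (adjusted p = 0.333).

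Of the genes of cell death, Phlda3 held the one result that passed the threshold. Phlda3 encodes a protein with a pleckstrin homology domain that competes with Akt for membrane lipids and so restrains Akt signaling (chr1:135766119-135769136, ENSMUSG00000041801). Its level was 137, 114 and 246 CPM in DMSO, 37.7, 49.5 and 48.7 in A-241, and 87.9, 86.1 and 72.5 in A-485. All A-241 libraries lay below all A-485 libraries, and these lay below all DMSO libraries. In IFNγ it was 110, 233 and 94.95 CPM, in A-241+IFNγ 43.9, 43.5 and 49.7, and in A-485+IFNγ 63.9, 57.2 and 68.2, in the same order with no overlap. The counts behind these values were 179 to 267 per library with A-241 and 543 to 891 without inhibitor. The log2 fold change was -1.87 ± 0.31 with A-241 against DMSO (95% interval -2.54 to -1.21, adjusted p = 0.00111) and -1.67 ± 0.31 with A-241+IFNγ against IFNγ (-2.33 to -1.01, adjusted p = 0.00274). With A-485 it was -1.01 ± 0.31 against DMSO (-1.66 to -0.36, adjusted p = 0.122) and -1.20 ± 0.31 under IFNγ (-1.85 to -0.55, adjusted p = 0.0609), neither called.

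The highest Phlda3 value of each control group came from a library that stood apart. Leaving out both lowers the spread by construction, and the share of all genes called rose (8.36%, 8.12%, 2.64% and 2.88% in the order that follows). The Phlda3 fold changes were then nearer 0 and their intervals narrower, and all 4 were called. They were -1.51 (-1.81 to -1.21, adjusted p = 1.08e-07) with A-241, -1.17 (-1.47 to -0.87, adjusted p = 4.22e-06) with A-241+IFNγ, -0.64 (adjusted p = 0.00775) with A-485 and -0.71 (adjusted p = 0.00363) with A-485+IFNγ. With all libraries, the A-241 call was lost when only the conditions compared were fitted (adjusted p = 0.0270) and without A-241 replicate 1 (adjusted p = 0.0111). The A-241+IFNγ call was lost when only those conditions were fitted (adjusted p = 0.0767) and without any one of its own libraries (adjusted p of 0.0173, 0.0168 and 0.0110 without replicates 1, 2 and 3). The fold change stayed negative in each of these.

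Bbc3 encodes Puma, a BH3-only protein that starts mitochondrial apoptosis (chr7:16308393-16318205, ENSMUSG00000002083). Its level was 19.8, 20.8 and 2.42 CPM in DMSO, 15.6, 11.8 and 8.85 in A-241, and 15.9, 14.3 and 22.8 in A-485. DMSO replicate 3 held 7 counts of Bbc3 and the other DMSO libraries 94 and 132, so this group alone spanned most of the range of the gene. Under IFNγ it was at 9.96, 3.28 and 16.8 CPM without inhibitor, 8.27, 4.89 and 5.98 with A-241, and 12.2, 8.76 and 12.7 in A-485+IFNγ. Its log2 fold change was -0.30 with A-241 (-1.43 to 0.83, adjusted p = 0.780) and -0.70 with A-241+IFNγ (-1.89 to 0.49, adjusted p = 0.536), and without the 2 libraries -0.79 (-1.34 to -0.24, adjusted p = 0.0476) and -1.07 (-1.67 to -0.47, adjusted p = 0.0139). With all libraries, then, the interval held changes of either sign, and without the 2 it held lower values, still short of the threshold.

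Trp53inp1 encodes a stress protein that promotes p53-dependent death and autophagy (chr4:11156431-11174379, ENSMUSG00000028211), and it was the lowest in counts, with 6 to 26 per library. Its level was 5.48, 3.63 and 7.26 CPM in DMSO, 1.26, 2.80 and 2.74 in A-241, and 1.94, 3.44 and 3.02 in A-485, and both inhibitor groups lay below DMSO. The log2 fold change was -1.21 ± 0.43 with A-241 (-2.12 to -0.30, adjusted p = 0.0936) and -0.92 ± 0.42 with A-485 (-1.81 to -0.04, adjusted p = 0.382), and -1.01 (adjusted p = 0.0705) and -0.72 (adjusted p = 0.318) without the 2 libraries. Under IFNγ the groups overlapped, and the A-241 value was -0.62 (adjusted p = 0.471), or -0.05 (adjusted p = 0.954) without the 2 libraries. IFNγ replicate 2 was at 6.55 CPM and the other IFNγ libraries at 2.21 and 2.45.

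The 2 genes of stress response and RNA control differed from each other. Sesn2 encodes sestrin 2, an inhibitor of mTORC1 that responds to amino acid and oxidative stress (chr4:132492032-132510501, ENSMUSG00000028893). Its level was 11.8, 12.2 and 9.33 CPM in DMSO, 11.1, 12.02 and 14.3 in A-241, and 13.4, 17.2 and 17.9 in A-485, and A-485 lay above DMSO without overlap. The fitted log2 change was 0.53 ± 0.19 with A-485 (0.12 to 0.93, adjusted p = 0.223) and 0.16 ± 0.19 with A-241 (adjusted p = 0.667). Under IFNγ it was 0.47 with A-485 (0.06 to 0.87, adjusted p = 0.267) and 0.37 with A-241 (-0.04 to 0.77, adjusted p = 0.301), and none was called. Without the 2 libraries the A-485 values were 0.39 (adjusted p = 0.332) and 0.52 (adjusted p = 0.109), and the A-241 values 0.0232 (adjusted p = 0.959) and 0.42 (adjusted p = 0.185).

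Zmat3, a zinc finger protein that binds RNA (chr3:32334792-32366014, ENSMUSG00000027663), was at 35.0, 30.9 and 50.4 CPM in DMSO and 24.8, 30.04 and 28.2 in A-241, with no overlap but a small gap. The A-485 libraries, at 36.7, 43.1 and 39.7 CPM, lay within the DMSO range. The log2 fold change with A-241 was -0.48 (-0.92 to -0.03, adjusted p = 0.181) without IFNγ and -0.50 (-0.94 to -0.06, adjusted p = 0.176) with it, and -0.28 (adjusted p = 0.239) and -0.27 (adjusted p = 0.252) without the 2 libraries. The A-485 fold changes of the 5 genes not given above lay between -0.21 and 0.24 without IFNγ (Bbc3, Btg2, Ccng1, Trp53 and Zmat3) and between -0.42 and 0.13 with it (Bbc3, Cdkn1a, Trp53, Trp53inp1 and Zmat3), all with adjusted p of 0.678 or more. The same genes lay between -0.33 and 0.24 and between -0.23 and 0.15 without the 2 libraries.

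IFNγ alone moved none of the 10 past the threshold, although 1.29% of genes were called in either direction in IFNγ against DMSO. At an unadjusted p under 0.05, 1 of the 10 was higher and 0 lower with edgeR, beside 8.43% of all genes, and DESeq2 and limma-voom called 0. The one was Btg2, with a log2 fold change of 0.77 ± 0.29 (0.15 to 1.39, adjusted p = 0.377), or 0.51 (adjusted p = 0.451) without the 2 libraries. Trp53inp1 had -0.60 (adjusted p = 0.807), which ran from -1.17 (adjusted p = 0.0959) without IFNγ replicate 2 to -0.30 without IFNγ replicate 1 and was -0.96 (adjusted p = 0.188) without the 2 libraries. The other 8 lay between -0.53 and 0.12, and between -0.64 and 0.11 without the 2. Whether IFNγ changed an inhibitor's effect was tested by interaction terms. None of the 10 was called for A-241, where 0.0334% of genes were, or for A-485, where 0% were. The interaction values ran from -0.85 to 0.59 for A-241 and from -0.47 to 0.50 for A-485, with 0 of 10 at an unadjusted p under 0.05 in either, beside 3.36% and 4.15% of all genes. Limma-voom called 0 of 10 in both, and DESeq2 called 0 of 10 for A-241 and 0 of the 8 to which it gave an adjusted p for A-485. The values ran from -0.56 to 0.96 and from -0.22 to 0.87 without the 2 libraries, none called. The Phlda3 effect of A-241 differed between cells with and without IFNγ by 0.20 (-0.71 to 1.12), an interval that holds 0 and also differences of over 1 log2 unit, and by 0.34 (-0.09 to 0.77) without the 2 libraries.

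Between the 2 inhibitors, Phlda3 had the largest log2 difference of the 10 without IFNγ. A-241 was given at 250 nM and A-485 at 1000 nM, so these comparisons set the 2 treatments side by side and not equal doses. In A-241 against A-485, 0.368% of genes were called and 0 of the 10, with 2 lower and 0 higher at an unadjusted p under 0.05, beside 8.13% of all genes in either direction, and DESeq2 and limma-voom called 0. The groups did not overlap for 3 of the 10, Cdkn1a, Phlda3 and Zmat3, all lower with A-241, beside 22.6% of all genes. The log2 difference was -0.86 (-1.51 to -0.21, adjusted p = 0.361) for Phlda3, -0.52 (-0.96 to -0.08, adjusted p = 0.460) for Zmat3 and -0.32 (-0.70 to 0.05, adjusted p = 0.735) for Cdkn1a. Neither group holds a library that stood apart, so the estimate for Phlda3 was almost the same without those 2 (-0.87) while its interval narrowed (-1.14 to -0.59, adjusted p = 0.000386), and it was then called, beside 2% of all genes. Zmat3 was then at -0.53 (adjusted p = 0.0294) and Cdkn1a at -0.33 (adjusted p = 0.146). Phlda3 was also called when only these 2 conditions were fitted (adjusted p = 0.00459).

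In A-241+IFNγ against A-485+IFNγ, 0.518% of genes were called and 0 of the 10, with 0 at an unadjusted p under 0.05 with edgeR, beside 6.48% of all genes, and 0 called by DESeq2 or limma-voom. The groups did not overlap for 4 of the 10, Bbc3, Btg2, Phlda3 and Zmat3, all lower with A-241, beside 19.7% of all genes. The log2 difference of Phlda3 was -0.47 (-1.12 to 0.19, adjusted p = 0.994). It was -0.83 (-2.02 to 0.36) for Bbc3, -0.59 (-1.24 to 0.07) for Btg2 and -0.43 (-0.87 to 0.01, adjusted p = 0.792) for Zmat3. These intervals hold no difference as well as differences of over 1 log2 unit for Bbc3, Btg2 and Phlda3. The values without the 2 libraries were -0.46 (-0.74 to -0.18, adjusted p = 0.0729) for Phlda3, -0.84 (adjusted p = 0.130) for Bbc3, -0.58 (adjusted p = 0.459) for Btg2 and -0.43 (adjusted p = 0.113) for Zmat3, none called.

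**Figure D4:**
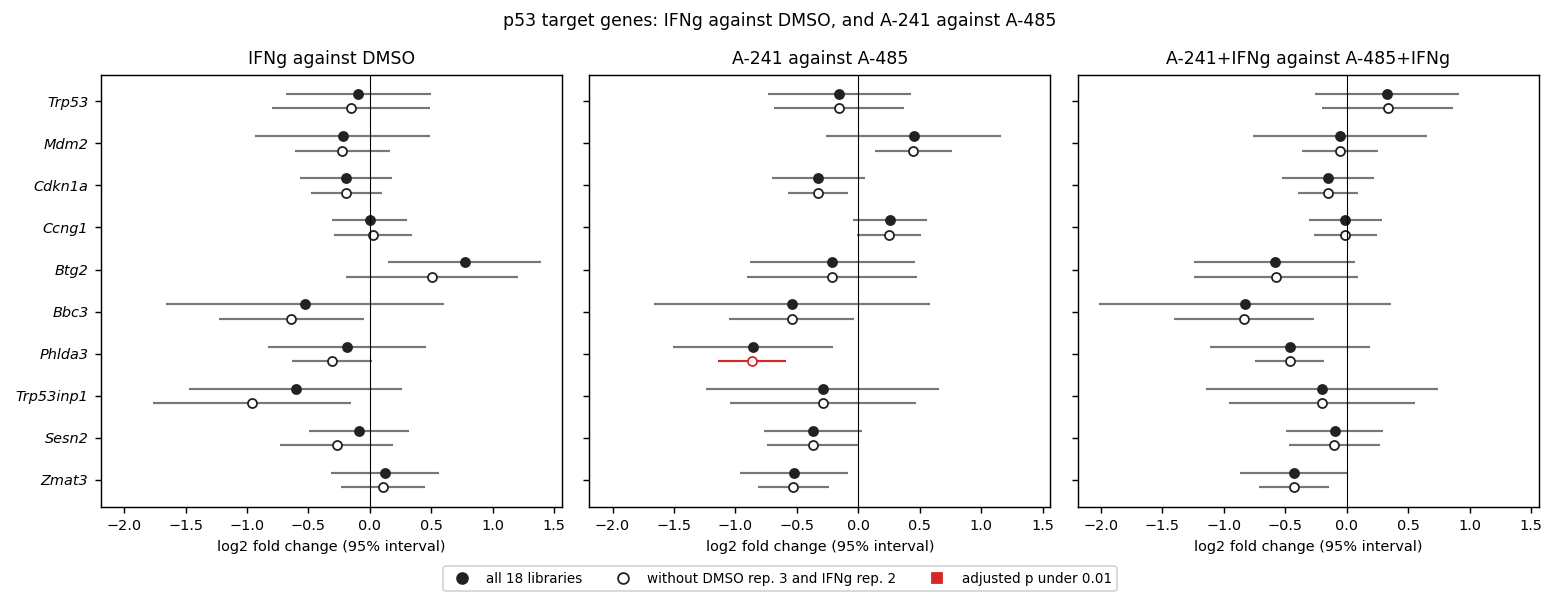
Log2 fold change (x axis, with 95% interval) of the 10 genes with IFNγ against DMSO and with A-241 against A-485, without and with IFNγ, with all 18 libraries (filled) and without DMSO replicate 3 and IFNγ replicate 2 (open); red marks an adjusted p under 0.01. Phlda3 in A-241 against A-485 without those 2 libraries (-0.87) is the only red point.

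The 10 genes are a small part of the p53 program, so 45 other known targets were read in the same way, of which 41 passed the filter. In A-241 against DMSO, 4 of 41 were called, all lower: Thbs1, Sfn, Plk2 and Aen. Of all genes, 3.49% were called lower and 0.819% higher. Thbs1, which encodes the matrix protein thrombospondin 1, fell from 65.2 ± 33.7 CPM (SD, n = 3) to 4.98 ± 0.54, a log2 fold change of -3.69 (-4.33 to -3.06, adjusted p = 8.96e-07). Sfn, which encodes the 14-3-3 sigma protein of the G2 checkpoint, fell from 431 ± 98.0 to 137 ± 8.36 CPM (-1.66, adjusted p = 0.00107). Plk2, a polo-like kinase, changed by -1.53 (adjusted p = 0.000965) and Aen, a nuclease of apoptosis, by -0.94 (adjusted p = 0.00183). The median over the 41 was -0.32, beside 0.01 over all genes. At an unadjusted p under 0.05, 3 were higher and 10 lower, beside 10.2% and 13.1% of all genes. With A-485 against DMSO, 0 of 41 were called, beside 0.66% of all genes, and the median was -0.17. At an unadjusted p under 0.05, 2 were higher and 7 lower, beside 4.09% and 8.16% of all genes. DESeq2 called 2 of the 41 with A-485, both lower, and limma-voom called 0, without a share of all genes for either tool. Without the 2 libraries that stood apart, when 42 of the targets passed the filter, the medians were -0.27 and -0.20. The A-241 values of Thbs1, Sfn, Plk2 and Aen were then -3.24, -1.51, -1.74 and -1.05, all called. With A-485, Thbs1 (-0.93) and Sfn (-0.99) were then called too. Of all genes, 8.36% were then called with A-241 and 2.64% with A-485.

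In IFNγ-treated cells, 3 of the 41 targets passed the threshold in A-241+IFNγ and 1 did in A-485+IFNγ, all of them lower. Of all genes, 3.51% were called lower with A-241+IFNγ, and 0.535% were called in either direction with A-485+IFNγ. Thbs1 was at 82.1 ± 11.4 CPM in IFNγ, 5.12 ± 0.80 in A-241+IFNγ and 18.9 ± 0.62 in A-485+IFNγ, with log2 fold changes of -3.99 (adjusted p = 4.62e-07) and -2.11 (adjusted p = 0.000578). With edgeR and all libraries it was also the one target called between the inhibitors, at -2.30 in A-241 against A-485 (adjusted p = 0.000552) and -1.88 under IFNγ (adjusted p = 0.00259). Of all genes, 0.368% and 0.518% were called there. DESeq2 called Aen lower with A-241 as well in both comparisons, and without the 2 libraries edgeR called Aen (-0.72 and -0.71) and Plk2 (-1.03 and -1.01) lower in both and Ddit4 (-1.10) in the first. Gdf15, a stress cytokine, changed by -2.27 (adjusted p = 0.00589) and Plk2 by -1.25 (adjusted p = 0.00299) with A-241+IFNγ. There limma-voom called Thbs1 and Plk2 but not Gdf15, and DESeq2 called Thbs1, Plk2, Gdf15 and Eda2r, all lower. Gdf15 in IFNγ ranged from 9.97 to 29.8 CPM between libraries. IFNγ against DMSO called 0 of 41, beside 1.29% of all genes, and DESeq2 and limma-voom called 0. At an unadjusted p under 0.05 in edgeR, 2 were higher and 1 lower, beside 4.72% and 3.7% of all genes. Without the 2 libraries, Thbs1 was at -3.93 with A-241+IFNγ and -2.06 with A-485+IFNγ, Gdf15 at -1.74 and Plk2 at -1.42 with A-241+IFNγ, all called, and in IFNγ against DMSO Sfn (-1.10) and Thbs1 (0.77) were then called. Of all genes, 8.12% were then called with A-241+IFNγ, 2.88% with A-485+IFNγ and 2.2% with IFNγ. The count over this list and the regulators rose without the 2 libraries, for instance from 5 to 9 with A-241 against DMSO. The share of all genes called in that comparison rose as well, from 4.31% to 8.36%.

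The regulators of p53 form the third group, with 23 of 24 tested. The genes of the targeted coactivators, Ep300 and Crebbp, were not called in any comparison. Ep300 was at 23.04 ± 1.696 CPM in DMSO and 32.1 ± 5.10 in A-241, a log2 fold change of 0.47 (0.16 to 0.79, adjusted p = 0.0596), and Crebbp at 78.6 ± 7.34 and 100 ± 11.3 (0.35, adjusted p = 0.147). Mdm4, the partner of Mdm2 that masks the p53 activation domain, had -0.17 (adjusted p = 0.530) with A-241 and -0.41 (adjusted p = 0.218) with A-485. Ppm1d, a phosphatase of p53 and itself a target, had 0.41 (adjusted p = 0.192) and 0.16 (adjusted p = 0.746). Trp63, the family member that marks basal epithelial cells, fell from 21.5 ± 8.22 to 4.23 ± 0.94 CPM with A-241 (-2.36, adjusted p = 0.00013) and was the one regulator called in that comparison by edgeR, while DESeq2 called Trp63 lower and Hdac1 and Sirt1 higher. Hipk2, a kinase of p53, rose with IFNγ from 10.8 ± 1.04 to 25.1 ± 2.97 CPM (1.21, adjusted p = 0.00512) and was lower in A-241+IFNγ than in IFNγ (-1.42, adjusted p = 0.000662). Sirt1, a deacetylase of p53, was higher there, at 14.5 ± 0.51 against 5.67 ± 1.61 CPM (1.31, adjusted p = 0.00345). EdgeR called 3.49% of all genes lower with A-241, 1.29% in either direction with IFNγ, and 3.51% lower and 0.518% higher with A-241+IFNγ. DESeq2 also called Trp63 lower with A-485 and with IFNγ, and Hipk2 lower with A-485+IFNγ. Without the 2 libraries Trp63 was at -2.67 with A-241, Hipk2 at 1.18 with IFNγ and -1.35 with A-241+IFNγ, and Sirt1 at 1.14 with A-241+IFNγ, all called. Trp63 was then called lower in 3 further comparisons, A-485 against DMSO (-1.67), IFNγ against DMSO (-1.41) and A-241+IFNγ against IFNγ (-1.24). The shares of all genes called were then 8.36% with A-241, 2.64% with A-485, 2.2% with IFNγ and 8.12% with A-241+IFNγ. The values with A-241 against DMSO were then 0.38 for Ep300, 0.35 for Crebbp, -0.26 for Mdm4 and 0.17 for Ppm1d, and those with A-485 -0.50 for Mdm4 and -0.08 for Ppm1d, none called. The median over the 23 lay between -0.15 and 0.01 in the 7 comparisons, and between -0.23 and 0.03 without the 2 libraries.

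Genes that p21 silences through the DREAM complex, mostly of cell division, and subunits of that complex were read as the step below Cdkn1a. Of these 21, all were tested and 0 were called in any comparison by edgeR, DESeq2 or limma-voom with all libraries. With A-241 against DMSO their median log2 fold change was 0.47, with 8 higher and 0 lower at an unadjusted p under 0.05 in edgeR, and with A-485 it was 0.21, with 3 higher and 0 lower. Of all genes, 10.2% were higher and 13.1% lower with A-241 at that p, and 4.09% and 8.16% with A-485. Under IFNγ the medians were 0.22 with A-241 and 0.16 with A-485, each with 3 higher and 0 lower, beside 8.17% and 5.35% of all genes higher. When the 2 libraries were left out, the A-241 median against DMSO was 0.29, with 9 higher and 1 lower, beside 11.8% and 15.9% of all genes. Aurka (0.60, adjusted p = 0.00192), a mitotic kinase, and Ccnb1 (0.51, adjusted p = 0.00749), which encodes cyclin B1, were then called higher. Of all 12135 genes then tested, 205 were called higher. The other medians were then 0.16 with A-485, 0.20 with A-241+IFNγ and 0.22 with A-485+IFNγ. At an unadjusted p under 0.05 there were 2 higher and 1 lower, 6 and 0, and 6 and 2, in that order. Of all genes, 6.02% were higher and 10.7% lower, 12.2% and 14.1%, and 10.2% and 14.9%. Proliferation was not measured.

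**Figure D5:**
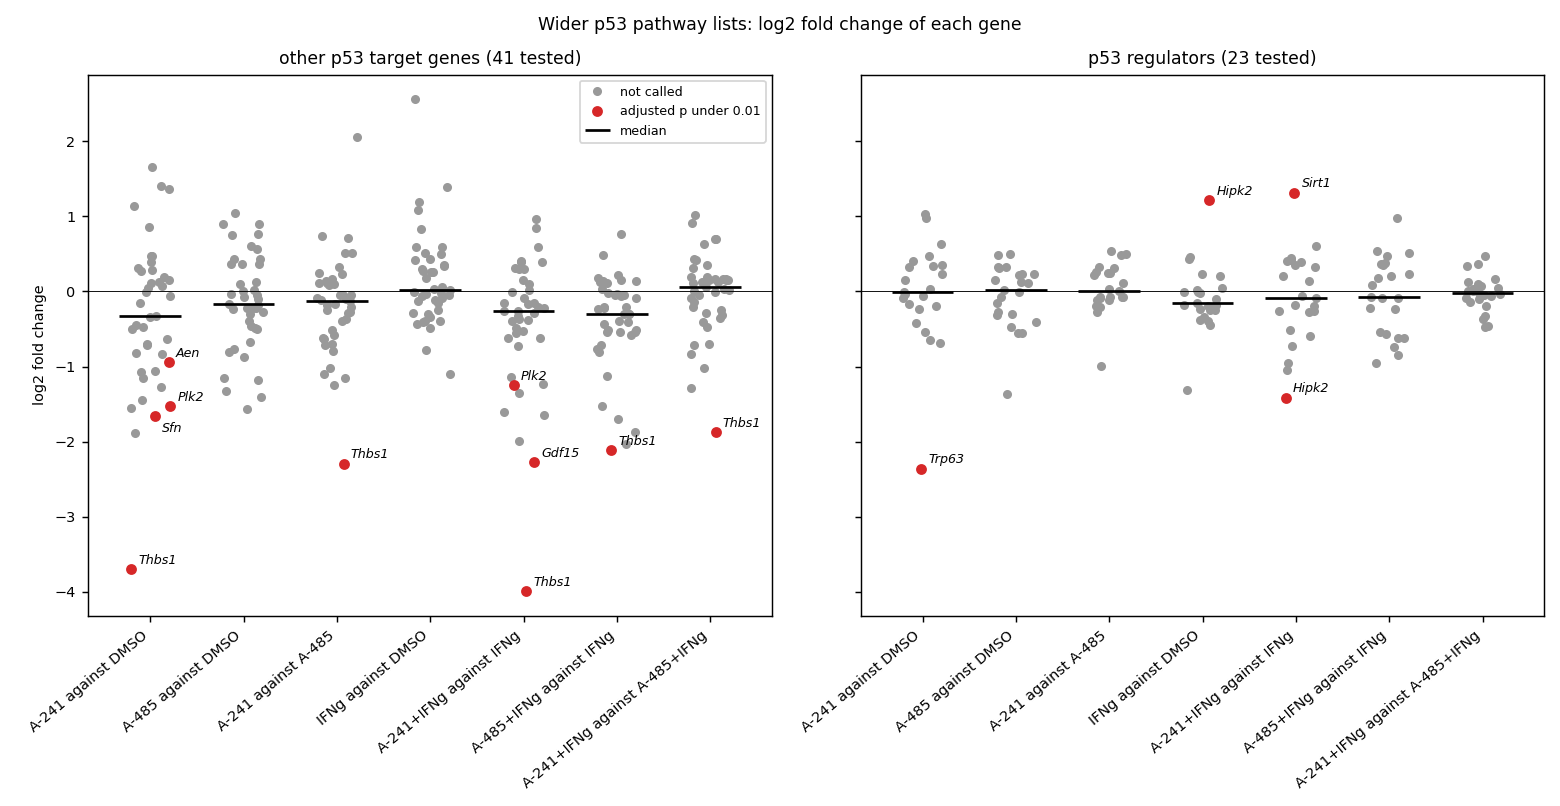
Log2 fold change (y axis) of each of 41 other p53 targets (left) and 23 p53 regulators (right) in 7 comparisons (x axis); red points passed an adjusted p under 0.01 and are named, and bars are medians. Thbs1 is the lowest called point, at -3.69 and -3.99 with A-241, and the medians of the targets lie between -0.32 and 0.06.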

How the data were processed

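The authors deposited raw counts per gene for 18 libraries. Per the labels and the study's methods, 75-base single-end reads were demultiplexed (bcl2fastq 2.17.1.14), checked (FastQC 0.11.5), trimmed (cutadapt 1.7), aligned to GRCm38/mm10 (HISAT2 2.1.0) and counted on exons with featureCounts. Reads on several genes were counted for each, and no strand option was given; none of the 10 genes shares exon bases with another. The annotation release is not given in the sources used here. Identifiers were matched to GENCODE vM21 symbols (42548 of 43629).

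Genes passing filterByExpr were fitted in 1 edgeR 4.0.16 model over all libraries (TMM, robust quasi-likelihood F-test, R 4.3.3), two-sided, with Benjamini-Hochberg adjustment over 11964 genes. Levels are TMM-scaled CPM with no offset. DESeq2 1.42.0, limma 3.58.1 and other scalings and filters were alternatives. The procedure was run on simulated counts in which no library stood apart from its group, so that run does not cover this feature of the data. The genes, the lists, the named-gene rule (all 10; of the wider lists up to 4 called genes with the largest rise and 4 with the largest fall, and Mdm4, Ppm1d, Ep300 and Crebbp always) were chosen with earlier results of these data known. Comparisons with the same control share its libraries.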

Additional observations from a re-analysis of the deposited data

How the results depend on the processing

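The direction of the Phlda3 fold change with A-241 was the same under every alternative run, with and without IFNγ, and its call was not; the losses stand beside the result. Among the 39 fold changes given for the 10 genes, direction and side of the threshold were kept in 406 of the values under other settings, with 3 sign changes and 8 changes of side, and in 222 of those with 1 library left out, with 7 and 5. With 1 library left out the range was -0.20 to 0.17 for Trp53 with A-241 and -0.0401 to 0.49 with A-241+IFNγ, -0.74 to 0.0442 for Bbc3 with A-241, -0.21 to 0.11 for Cdkn1a with A-241+IFNγ, and -0.0855 to 0.16 for Cdkn1a with A-485. Other sign changes were Cdkn1a with A-241+IFNγ under total counts (0.078), Trp53 with A-241 when only the compared conditions were fitted (-0.0187), and Cdkn1a with A-485 without the 2 libraries that stood apart (-0.13).

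Shares of all genes called were taken only for edgeR at adjusted p under 0.01, with all libraries and without the 2 that stood apart. Counts under the other settings below have no such share beside them, so they cannot be set against a background. Of the 10 genes, 2 were called with A-241+IFNγ by DESeq2 and at adjusted p under 0.05, and 1 with A-485+IFNγ by DESeq2. When only the compared conditions were fitted, 0 were called with A-241, 0 with A-241+IFNγ and 1 in A-241 against A-485. Without the 2 libraries, 1 was called with A-485, 1 with A-485+IFNγ and 1 in A-241 against A-485, where the shares of all genes called were 2.64%, 2.88% and 2%, against 0.66%, 0.535% and 0.368% with all libraries. Leaving out 1 library gave 0 to 1 with A-241 and 0 to 2 with A-241+IFNγ.

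Over the 64 other targets and regulators, the counts with all libraries were 5 with A-241, 0 with A-485, 1 in A-241 against A-485, 1 with IFNγ, 5 with A-241+IFNγ, 1 with A-485+IFNγ and 1 in A-241+IFNγ against A-485+IFNγ. In that order, those that moved by over 1.5 times were 8, 3, 2, 2, 3 and 2 with DESeq2 (not A-241+IFNγ), 11, 3, 2 and 2 at adjusted p under 0.05 (A-241, A-485, IFNγ, A-485+IFNγ), and 9, 5, 4, 6, 9, 4 and 3 without the 2 libraries. When only the compared conditions were fitted they were 1 with A-241, 2 in A-241 against A-485, 0 with IFNγ, 1 with A-241+IFNγ, 0 with A-485+IFNγ and 3 in A-241+IFNγ against A-485+IFNγ. RLE size factors, no filter, and a filter of at least 10 counts in every library each gave 1 with A-485. With 1 library left out the ranges were 3 to 7 with A-241, 0 to 1 with A-485, 0 to 2 with IFNγ, 2 to 6 with A-241+IFNγ and 0 to 1 in A-241+IFNγ against A-485+IFNγ. The cause of these differences was not tested. Without the 2 libraries, the shares of all genes called were 8.36%, 2.64%, 2%, 2.2%, 8.12%, 2.88% and 1.34%, in the order of the counts with all libraries. With all libraries, 4.31% of all genes were called with A-241.

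The correlation of deviations between same-numbered libraries ran from -0.80 to 0.37 over 21 pairs and exceeded 0.1 in 5. The lowest values were -0.80 and -0.70, for replicates 2 and 3 of IFNγ against DMSO. Each of these pairs holds 1 of the libraries that stood apart, so whether the replicate numbers pair the libraries could not be settled. With the replicate block, 0 rather than 1 of the 64 was called with IFNγ, and no other count moved by over 1.5 times. Depth limits Trp53inp1 and Btg2 most, with 6 to 26 and 8 to 51 counts per library.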

Other observations

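Without DMSO replicate 3 and IFNγ replicate 2, edgeR called several other p53 targets that it did not call with all libraries. They were chosen here after their values were seen. The shares of all genes called were then 8.36% with A-241, 2.64% with A-485, 8.12% with A-241+IFNγ, 2.88% with A-485+IFNγ and 2.2% with IFNγ. Ddit4, an inhibitor of mTORC1, had a log2 fold change of -2.06 in A-241 (adjusted p = 1.39e-07) and -0.96 in A-485 (adjusted p = 0.00329), each against DMSO. Against IFNγ it had -2.50 in A-241+IFNγ (adjusted p = 2.15e-08) and -2.21 in A-485+IFNγ (adjusted p = 6e-07), and IFNγ itself was lower than DMSO (-1.08, adjusted p = 0.00303). Eda2r, a death receptor of the TNF receptor family, was lower with A-241 (-1.46, adjusted p = 0.00368) and with A-241+IFNγ (-1.60, adjusted p = 0.000415). Perp, a desmosomal protein of apoptosis, was lower with A-241 (-0.62, adjusted p = 0.00095). Tigar, a phosphatase that restrains glycolysis, was higher with A-485 (0.87, adjusted p = 0.00576). Lif, a cytokine, was higher with IFNγ (2.75, adjusted p = 0.0097), and lower with A-241+IFNγ (-2.06, adjusted p = 0.0069) and with A-485+IFNγ (-2.50, adjusted p = 0.00534). The effect of A-241 on Sfn differed with IFNγ, by 1.37 (0.91 to 1.83, adjusted p = 0.00299), beside 0.165% of all genes called for that interaction. With all libraries, 0 of 41 targets were called for it by edgeR, DESeq2 or limma-voom. Sfn was called lower with A-241 and with IFNγ, each against DMSO. It was not called in A-241+IFNγ against IFNγ, and the reason for this difference was not tested. With all libraries, Sfn was not called in IFNγ against DMSO by edgeR, DESeq2 or limma-voom.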
